A study of Mus musculus with 2 samples.

Results

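Type I interferon-induced genes form a module that cells switch on when interferon beta or an interferon alpha binds its receptor. The module followed here lists 36 mouse genes by symbol, of which 35 matched an entry among the 27998 genes of the deposited tables, and Mx2 was not analysed here. Members were taken by name, with no threshold on their level. They are grouped below by role as 7 nucleic acid sensors, 3 transcription factors, 6 oligoadenylate synthetases and their relatives, 4 IFIT proteins, 3 genes of the ISG15 system, 4 antiviral effectors and 8 other induced genes.

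The members were measured in 2 single-cell RNA libraries of CD45+ leukocytes sorted from MC38-GFP+ tumours, which grow from a mouse colon adenocarcinoma line. All tumours were subcutaneous in C57BL/6 mice that had received 50000 tumour cells and then 100 µg of an antibody to the T cell inhibitory receptor PD-1 on days 12, 15, 18 and 22, a dose the submitters call sub-optimal. One library came from tumours labelled responder and 1 from tumours labelled non-responder, and both had the antibody, so neither is an untreated control. The labels give no number of mice per library. With 1 library per group there is no replicate check on any difference below and no test was made: intervals are exact 95% counting intervals and cover counting error only, not the spread between animals or preparations.

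As background, type I interferons act through a receptor of 2 chains, IFNAR1 and IFNAR2, whose kinases activate STAT2. It joins IRF9 in a complex that binds the interferon-stimulated response element (ISRE) upstream of its targets. Several targets, IRF7 and STAT2 among them, feed back into the pathway, while USP18 dampens the receptor. In tumours, macrophages and dendritic cells are known both as sources and as responders, and interferon gamma from T and natural killer (NK) cells induces an overlapping set of genes.

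RefSeq promoters (GRCm38.p6) were at hand for 27 of the 35 members, and the 250 bases before each start were searched on both strands for the ISRE core, which was taken as GAAA, any 2 bases and GAAA again. Of those 27 genes 14 held a match, or 51.9%, beside 3.46% of all 27025 genes with a promoter in the table. The core of the gamma-activated site, TTCNNNGAA, an element of interferon gamma targets, was in 3 of the 27, or 11.1%, beside 8.13% of all genes, and overlapped no ISRE match. A match is a description of the letters and not evidence of binding. The stretches below are shown because these 7 members span the patterns of the results: Oas3 and Stat2 were higher in the responder library, Rsad2 and Ifit3b in the non-responder library, Isg15 and Ifit3 tracked the sum of the other members most closely from cell to cell, and Ifit1 was tightly coupled to Ifit3. They are written 5′ to 3′ on the strand of the gene, with matches to the ISRE core, or to its reverse complement, in capitals.
Isg15: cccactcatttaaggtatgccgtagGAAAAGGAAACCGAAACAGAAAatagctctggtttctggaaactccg
Ifit1: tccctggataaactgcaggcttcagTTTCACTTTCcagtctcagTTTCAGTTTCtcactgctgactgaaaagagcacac
Ifit3: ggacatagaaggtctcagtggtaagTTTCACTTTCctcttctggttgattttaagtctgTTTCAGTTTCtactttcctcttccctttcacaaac
Ifit3b: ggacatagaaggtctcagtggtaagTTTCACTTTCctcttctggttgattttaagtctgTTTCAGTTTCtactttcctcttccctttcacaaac
Rsad2: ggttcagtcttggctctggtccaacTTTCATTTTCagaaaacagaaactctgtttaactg
Oas3: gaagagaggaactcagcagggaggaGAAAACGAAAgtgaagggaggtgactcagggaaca
Stat2: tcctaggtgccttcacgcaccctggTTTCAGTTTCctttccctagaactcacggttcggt

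The Isg15 stretch (chr4:156200850-156200921, minus strand) holds 3 matches that overlap in 1 run, the nearest beginning 66 bases before the start of the gene. The Ifit1 stretch (chr19:34640760-34640838, plus strand) holds 2, at 104 and 85 bases. The stretches of Ifit3 (chr19:34583348-34583441) and of its neighbour Ifit3b (chr19:34607744-34607837), both on the plus strand, were the same over all 94 bases, with 2 matches each. Rsad2 (chr12:26456538-26456597, minus strand), Oas3 (chr5:120777700-120777759, minus strand) and Stat2 (chr10:128270251-128270310, plus strand) each hold 1 match, at 120, 75 and 222 bases before the start. No match was found in the 250 bases of Irf7, Ifi44, Ifit2, Oasl1, Oasl2 or Cmpk2, among others, which says only that these letters are not in that window.

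The libraries held 45866561 (responder) and 32032569 (non-responder) UMIs, the counted molecules, over 4425 and 2580 barcodes. After barcodes with few genes or much mitochondrial RNA were left out, 4376 and 2565 cells remained, with medians of 10043 and 11752 UMIs. The 2 libraries shared 14 barcode sequences. Cells were clustered without the members, and clusters were named from marker lists. Monocyte/macrophage-like cells, called macrophage-like here, made up 4050 responder and 2166 non-responder cells (92.6% and 84.4%), and all 15 of their markers were detected in both libraries. T cell-like cells numbered 80 and 41, NK cell-like cells 4 and 20, dendritic-like cells 11 and 78 and fibroblast-like cells 22 and 20. A further 102 and 31 barcodes carried T cell and macrophage markers together. Cluster 9 (46 and 3 cells) had few UMIs per cell and no macrophage marker among its 10 leading genes, and was left unnamed. Cluster 4 (54 and 187 cells, 1.23% and 7.29% of the libraries) had the neutrophil marker S100a8 among its 10 leading genes, and cluster L3 (7 and 19 cells) the NK marker Gzma, so both were left unnamed and outside the classes below. The macrophage-like cells of the 2 libraries lay mostly in different clusters: 16, 8, 10, 7 and 5 in the responder library, and 0, 3, 2 and 1 in the non-responder library.

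In macrophage-like cells the module as a whole was somewhat higher in the responder library. Its summed level was 4118 CPM (a gene's share of all UMIs of the class, scaled to counts per 1000000) in the responder library and 3240.5 CPM in the non-responder library, a log2 ratio of 0.35 with an interval of 0.33 to 0.36. The median log2 ratio over the 35 members was 0.28 beside a median of -0.09 over all 10790 genes with at least 50 UMIs. Of the 35 members 25 were higher in the responder library, or 71.4%, where 39.9% of all genes were. At least 1.5-fold higher were 6 members, Ifi44, Zbp1, Parp14, Oas3, Herc6 and Stat2, beside 8.38% of all genes. At least 1.5-fold lower was 1 member, Rsad2, beside 11.3% of all genes. The module's direction depended on how clusters were weighted, and this is taken up with the clusters.

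The 7 sensors were all higher in the responder library, although without cluster 16 Ddx58 (-0.19), Ifi205 (-0.15) and Ifih1 (-0.07) turned in log2 ratio. That cluster, described with the clusters, held almost only responder cells and was rich in the module. Leaving it out therefore lowers the responder side, here and for the members below. Zbp1, which binds Z-form nucleic acid and can start necroptosis, stood at 380.2 CPM (374 to 386) in the responder library and 187 CPM (182 to 192) in the non-responder library, a log2 ratio of 1.02 (0.98 to 1.07). The cytosolic RNA sensors were close between libraries: Ddx58 (RIG-I) was at 24.4 and 23.9 CPM and Ifih1 (MDA5) at 37.8 and 34.0 CPM. Dhx58 (LGP2), their regulator, was at 75.1 and 57.7 CPM. The PYHIN family members, of which Ifi204 binds DNA, were at 261 and 229 CPM for Ifi204, 86.0 and 71.0 for Ifi203, and 27.3 and 26.0 for Ifi205. The interval of the log2 ratio included 0 for Ddx58 and Ifi205.

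All 3 transcription factors were higher in the responder library as well. Irf7, the factor that drives later interferon alpha genes, had the most UMIs of any member, with 707 CPM (699 to 715) against 483 CPM (475 to 491), a log2 ratio of 0.55 (0.52 to 0.58). Stat2 was at 39.2 and 26.0 CPM, a log2 ratio of 0.60. Irf9, the DNA-binding part of the same complex, was at 58.3 and 53.4 CPM, a log2 ratio of only 0.13.

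Of the oligoadenylate synthetases, whose product activates the RNA-cutting enzyme RNase L, 5 of 6 were higher in the responder library. Oas3 led them at 36.6 CPM against 21.8 CPM, a log2 ratio of 0.75 (0.61 to 0.89). Oas2 was at 14.7 and 11.2 CPM and Oas1g at 20.5 and 18.1 CPM. Oasl1, an inhibitor of Irf7 translation, was at 89.3 and 67.3 CPM, and its relative Oasl2 was at 160.5 and 119.9 CPM. Oas1a, at 53.7 and 56.0 CPM, was the exception, and its interval included 0. Without cluster 16, Oas1g and Oasl1 turned as well, to log2 ratios of -0.01 and -0.02.

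The IFIT proteins, which bind foreign RNA and hold back its translation, went the other way, with all 4 higher in the non-responder library, although Ifit3 changed sides under TMM scaling, which moves every log2 ratio up by 0.12. The group's direction changed without the cells richest in the module. Interferon-high cells, defined further on, were left out of both libraries. Then Ifit1 (0.31), Ifit2 (0.26), Ifit3 (0.58) and Ifit3b (0.35) were all higher in the responder library. Those cells were chosen by a sum that includes these 4 genes. In the cells left when other members made the choice, the log2 ratios were 0.26, 0.20, 0.69 and 0.25. Ifit2 was at 38.9 CPM in the responder library and 52.2 CPM in the non-responder library, a log2 ratio of -0.42 (-0.53 to -0.32). Ifit3b was at 39.7 and 51.3 CPM, a log2 ratio of -0.37 (-0.47 to -0.27). Ifit1 was at 76.9 and 90.7 CPM, and Ifit3 was level at 209 CPM in both.

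The ISG15 system stood with the sensors. Isg15, a small protein that is joined to others like ubiquitin, was at 598 CPM (591 to 605) against 447 CPM (439 to 455), a log2 ratio of 0.42 (0.39 to 0.45). Usp18, which removes it, was at 115 and 85.6 CPM, a log2 ratio of 0.43. Herc6, the mouse ligase that attaches it, was at 34.0 and 20.3 CPM, a log2 ratio of 0.75. Without cluster 16 the log2 ratios were 0.07 for Isg15, 0.10 for Usp18 and 0.52 for Herc6.

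The 4 antiviral effectors were all lower in the responder library, although Mx1 and Cmpk2 changed sides under TMM scaling. Both also turned, to log2 ratios of 0.27 and 1.05, without interferon-high cells, which the module's own sum chose. In the cells left when other members made the choice, Mx1 was at 0.44 and Cmpk2 at 0.99. Rsad2 (viperin), which makes a chain-ending nucleotide, was at 70.5 CPM (68.0 to 73.1) against 133 CPM (129 to 138), a log2 ratio of -0.92 (-0.99 to -0.85). Isg20, an exonuclease, was at 26.4 and 33.0 CPM, a log2 ratio of -0.33 (-0.45 to -0.20). Mx1, a dynamin-like GTPase, was at 23.4 and 25.3 CPM with an interval that included 0. Cmpk2, a mitochondrial nucleotide kinase whose gene (chr12:26469204-26479837) lies beside Rsad2 (chr12:26442746-26456452) on the opposite strand, was at 16.8 and 18.0 CPM, also with 0 in its interval.

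Among the other induced genes 7 of 8 were higher in the responder library. Ifi44 had the largest ratio of all members, at 30.1 CPM (28.4 to 31.8) against 13.1 CPM (11.7 to 14.5), a log2 ratio of 1.20 (1.03 to 1.38). Parp14, an ADP-ribosyltransferase, was at 55.1 and 32.5 CPM, a log2 ratio of 0.76 (0.65 to 0.87). Rtp4 was at 312 CPM (307 to 318) against 217 CPM (212 to 223), a log2 ratio of 0.53 (0.48 to 0.57). Xaf1 (147 and 105 CPM), Slfn8 (30.2 and 22.3), Trim30a (85.2 and 65.4) and Phf11d (123 and 118) were also higher, Phf11d with an interval that included 0 and, without cluster 16, a log2 ratio of -0.16. Slfn5, at 14.5 and 15.2 CPM, was lower, with an interval that included 0 and a ratio that changed sides under TMM scaling, as that of Oas1a did.

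**Figure D1:**
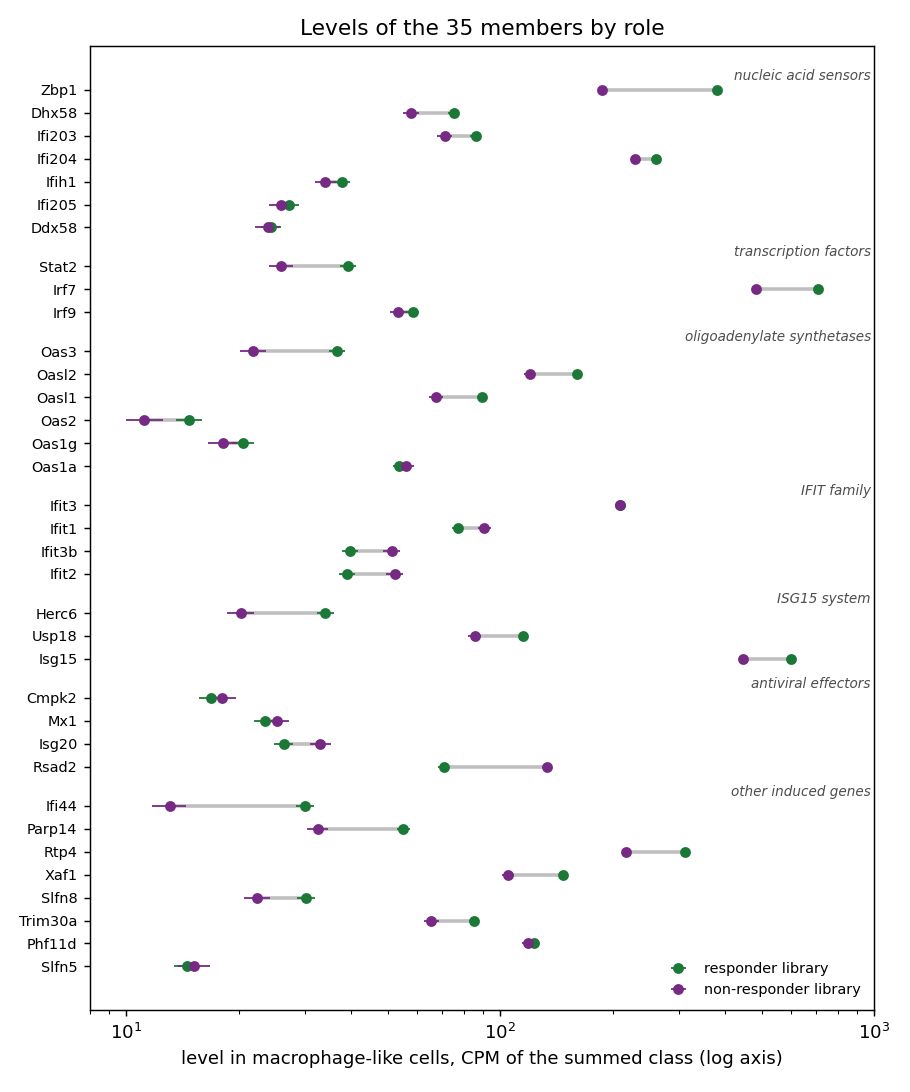
Level of each of the 35 members in macrophage-like cells of the responder (green) and non-responder (purple) library, in CPM of the summed class on a log axis, with exact 95% Poisson intervals that cover counting error only. Sensors, transcription factors and the ISG15 system have the green point to the right, while Rsad2, Ifit2 and Ifit3b have the purple point to the right.

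As sums over role groups, sensors were at 892 and 629 CPM and transcription factors at 804 and 562 CPM. The IFIT proteins summed to 364 and 404 CPM, and the antiviral effectors to 137 and 209.5 CPM. The effectors thus took 3.33% of the module's UMIs in responder and 6.47% in non-responder macrophage-like cells. Most of that gap was Rsad2, at 70.5 against 133 CPM, and the intervals of the ratios of Mx1 and Cmpk2 included 0. The module was also top-heavy: Irf7, Isg15, Zbp1 and Rtp4 together held 48.5% of its UMIs in the responder library and 41.2% in the non-responder library.

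To see whether the module was on or off in single cells, each cell was thinned to 3000 UMIs and its member UMIs were summed. This left out 67 responder and 2 non-responder macrophage-like cells with fewer UMIs. The sum had a median of 10 in 3983 responder cells, with 3 at the 10th and 26 at the 90th percentile and a highest value of 114. In 2164 non-responder cells it had a median of 6, with 1 and 25 at those percentiles and a highest value of 118. The non-responder library thus reached lower at the bottom, while the 90th percentiles were close. No member UMI was seen in 0.603% (0.386 to 0.895) of thinned responder cells and in 5.41% (4.49 to 6.44) of non-responder cells, and the variance over the mean was 8.46 and 16.7. A typical responder cell showed 7 of the 35 members and a typical non-responder cell 5, with up to 26 and 25.

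Neither library showed a separate peak at high sums in a kernel density of log2(sum + 1) at a bandwidth of 0.2 or 0.4. More of the non-responder cells held no member UMI. At 0.2 the density had its main maximum at a sum of 9.78 in the responder library and 6.01 in the non-responder library. Its other maxima, at 0 and 1.03 in the responder library and at 0, 1.01 and 2.14 in the non-responder library, sat on the lowest whole sums, which are far apart on this scale. At a bandwidth of 0.4 the responder library had 1 maximum, at 9.85, and the non-responder library had 2, at 0.13 and 5.73. No maximum stood above the main one at 0.2 or 0.4. At 0.1 the curves broke into 11 and 12 maxima, some of them above the main one, up to sums of 114 and 84. With cells thinned to 5000 UMIs the main maxima were at 17.1 and 8.32, again with none above them. At that depth and a bandwidth of 0.4 each library had 1 maximum, at 16.9 and 8.25. The low maximum of the non-responder library at 0.4 was thus not kept. At bandwidths of 0.2 and 0.4 cells rich in the module thus lay in a tail without a peak of its own. A count of maxima cannot tell such a tail from a group of cells that overlaps the rest. Cells past a cut through it are therefore read here as a range and not as a type.

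The tail was cut at 27, which is 3 times the pooled median of 9. At or above it lay 377 responder cells, 9.47% (8.57 to 10.4), and 195 non-responder cells, 9.01% (7.84 to 10.3), called interferon-high here. The shares thus lay within each other's intervals at this point, and they crossed along the tail. At a sum of 18 or more the responder share was above, 22.0% against 16.3%. At 36 or more it was below, 4.22% against 5.36%, and at 54 or more it was 0.653% (0.427 to 0.955) against 1.85% (1.32 to 2.51). Within 3 UMIs of the cut lay 117 responder cells below and 87 above, and 40 and 35 non-responder cells.

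**Figure D2:**
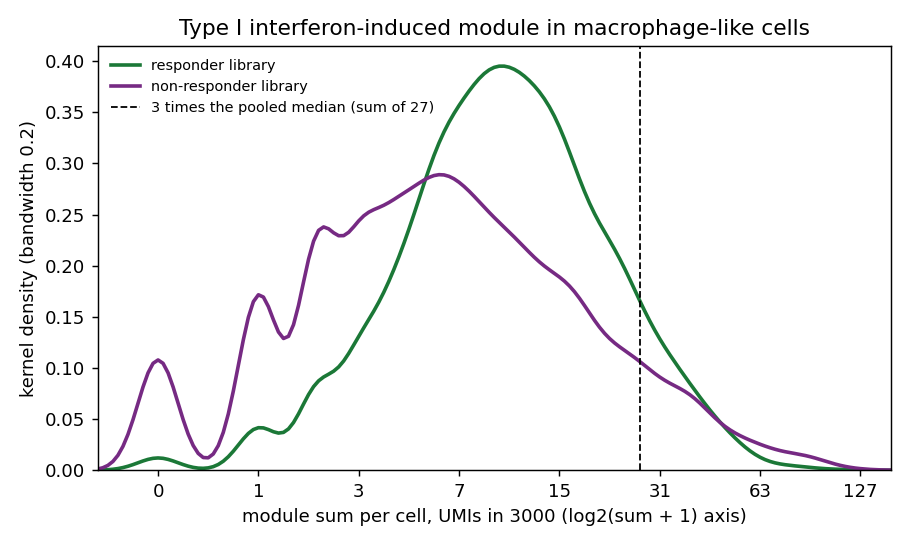
Kernel density (bandwidth 0.2) of the module sum per macrophage-like cell, in member UMIs of 3000 on a log2(sum + 1) axis, for the responder (green, 3983 cells) and non-responder (purple, 2164 cells) library, with the cut at a sum of 27 dashed. Above its main maximum each curve falls without another maximum, the purple curve is higher at sums of 0 to 5, and the curves meet again near a sum of 50.

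Depth and mitochondrial share were close between interferon-high and other cells. The median UMIs of interferon-high cells were 9431 and 11366, beside 10294.5 and 12318 in the other cells, and their median mitochondrial shares were 2.06% and 2.24%, beside 2.11% and 2.20%. The summed T cell markers were at 11.7 and 10.1 CPM in interferon-high cells and 12.4 and 7.19 CPM in other cells, and the summed monocyte/macrophage markers were at 52449.5 and 47090.7 CPM beside 49618.4 and 50064.8 CPM. The NK list was higher in interferon-high cells, at 144 and 48.3 CPM beside 75.8 and 6.17 CPM, with Ncr1, Klrb1c, Eomes and Klra8 at 0 in both libraries' interferon-high cells. Its part in the results was not tested.

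To read members in cells they had not selected, odd-numbered members of the list were measured in cells chosen by the sum of the even-numbered ones, and even-numbered members in cells chosen by the odd-numbered ones. The cut was again 3 times the pooled median of the sum. The members moved together: every one of the 35 was higher in interferon-high cells in both libraries, by a median log2 of 1.41 (from 0.42 to 3.10) in the responder library and of 2.29 (from 0.38 to 4.86) in the non-responder library. At least 1.5-fold higher were 34 members in each library, all but Irf9, beside 5.19% of all genes between responder and 7.55% between non-responder cells split by the whole sum. The choice of cells used correlated genes of the same cells, so this is a description of how the module hangs together. Many cells were chosen both ways: 210 in the responder library, 44.4% of those chosen by odd-numbered and 65.8% of those chosen by even-numbered members, and 149 in the non-responder library, 70.6% and 73.8%.

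The members differed in how far they were confined to the tail. Cmpk2 was the most concentrated in the non-responder library, at 149 CPM in interferon-high and 5.11 CPM in other cells, so that 74.1% of its UMIs lay in interferon-high cells. Ifit3b followed with 388 and 18.1 CPM and 67.8% of its UMIs, and Ifit2 with 357 and 22.2 CPM and 61.3%. Rsad2 stood at 915 and 61.0 CPM, with 58.1% of its UMIs there. At the other end Irf9 was at 67.6 CPM in interferon-high and 52.0 CPM in other non-responder cells, with 11.3% of its UMIs in the former. Oas1a had 19.0% there, Irf7 was at 1217 and 415 CPM, with 21.3%, and Zbp1 at 471 and 161 CPM, also with 21.3%.

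In the responder library members were less concentrated, and their order was partly different. Ifit3b came first, at 186 and 21.6 CPM with 51.5% of its UMIs in interferon-high cells, and Cmpk2 stood at 70.8 and 10.2 CPM with 46.2%. Zbp1 had the smallest share there, 11.6%, at 606 CPM in interferon-high and 362 CPM in other cells, and Irf9 had 14.2%. The 2 shares are from unlike sets of cells, which held 7.25% (for Zbp1) and 11.0% (for Irf9) of the class's UMIs. By fold over the other cells Irf9 was the lowest, at 1.34 beside 1.67 for Zbp1. Over all members the median share of UMIs in interferon-high cells was 22.0% in the responder library and 32.1% in the non-responder library.

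The members' median log2 ratio between libraries was above 0 in the bulk of cells and slightly below 0 in the tail. Among cells below the cut 33 of 35 members were higher in the responder library, with a median log2 ratio of 0.53. At least 1.5-fold higher were 16 of them, beside 8.8% of all genes, and none was that much lower, beside 11.3%. Among interferon-high cells 26 of 35 were lower in the responder library, with a median of -0.21. The interval included 0 for several of these, Oasl1, Dhx58, Stat2, Trim30a and Herc6 among them. For scale, TMM scaling of the whole class moved log2 ratios up by 0.12. Over the whole class 39.9% of all genes were higher in that library, with a median of -0.09. That share was not taken for these cells alone. At least 1.5-fold lower were 12 members, beside 10.7% of all genes, and none was that much higher, beside 9.03%. These 1.5-fold shares of all genes are from cells split by the whole sum. Members were read in cells chosen with the other members. The median for all members thus changed sign with the height of the tail that the cells came from.

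Isg15 was apart below the cut and nearly level above it. In cells below the cut it was at 485 CPM in the responder library and 288 CPM in the non-responder library. This was a log2 ratio of 0.75 (0.71 to 0.79). In interferon-high cells it was at 2022 and 2169.8 CPM, a log2 ratio of -0.10 (-0.16 to -0.05). The median over all genes of the whole class was -0.09. Cmpk2 crossed the farthest, from 10.2 against 5.11 CPM (log2 0.99) below the cut to 70.8 against 149 CPM (log2 -1.07) above it. Rsad2 and Isg20 alone were lower in the responder library on both sides: Rsad2 was at 49.5 against 61.0 CPM below the cut and at 340.2 against 915 CPM above it. Zbp1, Ifi44 and Oas3 were higher in the responder library on both sides with intervals clear of 0, Ifi44 at 26.9 against 9.06 CPM and at 71.0 against 56.3 CPM.

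**Figure D3:**
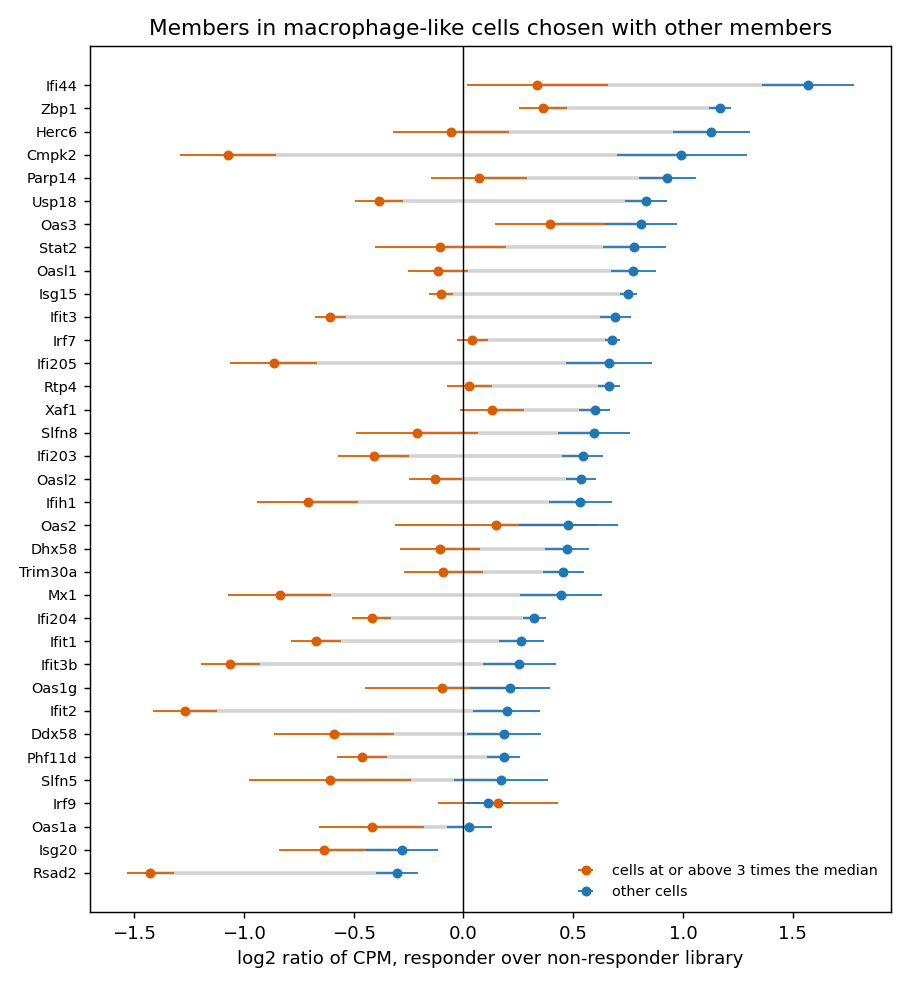
Log2 ratio of CPM, responder over non-responder library, for each of the 35 members in macrophage-like cells at or above 3 times the median module sum (orange) and in the other cells (blue), where cells were chosen with members other than the one read, and bars are exact 95% counting intervals. Blue points lie right of 0 for 33 members and orange points left of 0 for 26.

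The 2 libraries placed their interferon-high cells differently among the clusters. In the responder library cluster 16 held 58.4% of them, and 24.1% (21.3 to 27.0) of its cells were interferon-high, with the module at 6438 CPM. This cluster of 914 responder and 11 non-responder cells was led by Fam26f, Ccl8, Serpina3g and Il18bp, and its 10 leading genes also held the members Oasl1 and Ifit3, although no member was used to cluster. Cluster 7, led by Ly6i, Ifitm1, Ocstamp and Ly6c2, with Plac8 and Nos2 also among its 10 leading genes, held a further 18.0% of them. Cells of clusters 8 and 10 were interferon-high in only 2.47% and 1.53%.

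Non-responder interferon-high cells lay in that library's common clusters. Cluster 0, led by Gpr34, Ramp1 and Egr1, held 46.7% of them, and cluster 1, led by Adm, Mmp12 and Gpnmb, held 21.0%. The share of interferon-high cells was 11.7% (9.56 to 14.2) in cluster 0 and 10.3% (7.48 to 13.7) in cluster 1. It was 4.15% in cluster 2 (F13a1, Spp1, Pf4) and 2.67% in cluster 3, whose leading genes were those of dividing cells.

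A few non-responder cells grouped with the responder cells, and these were rich in the module. In cluster 7 the 21 non-responder cells were at 10830.3 CPM beside 3702 CPM in 657 responder cells. In cluster 5, led by genes of cell division, 29 non-responder cells were at 8536 CPM beside 3752 CPM in 488 responder cells. Where shared clusters were otherwise large enough to compare, the gap was smaller: 3146 against 3513 CPM in cluster 1 and 3044 against 3461 CPM in cluster 10. With these 4 clusters weighted equally the module's log2 ratio turned to -0.95, and all 35 members were lower in the responder library. Taken singly, none of 35 members was higher in the responder library in cluster 5 or 7, while 13 of the 34 with enough UMIs were in cluster 1 and 17 of 35 in cluster 10. When the members and the listed interferon-induced and signalling genes were all kept out of the clustering, 3 shared clusters gave -0.41, of which 1 cluster of 31 non-responder cells gave -0.91 and the others -0.11 and 0.01. The sign of the module's ratio thus differed between the whole class and the shared clusters, where few non-responder cells carried the values of clusters 5 and 7.

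**Figure D4:**
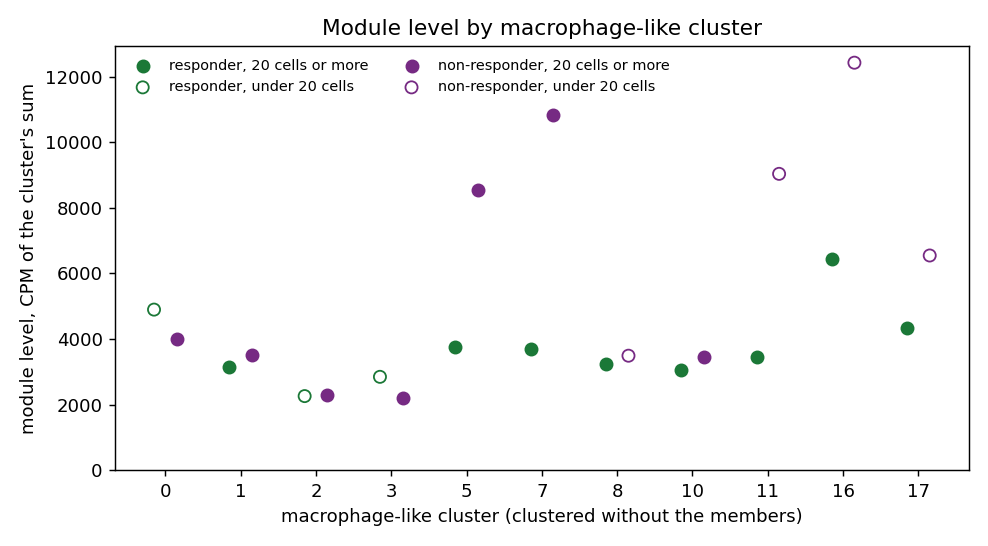
Module level in CPM of each macrophage-like cluster's sum, for responder (green) and non-responder (purple) cells, with clusters of under 20 cells from a library as open circles. Cluster 16 has the highest filled green point, at 6438 CPM, and the filled purple points of clusters 5 and 7 stand at 8536 and 10830.3 CPM.

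Without cluster 16 the module's log2 ratio was 0.11, and members at least 1.5-fold apart were 3 higher and 5 lower in the responder library. The responder share of interferon-high cells was then 5.12%, beside 8.78% in the non-responder library. Cluster 16 held 58.4% of the responder library's interferon-high cells and 3.08% of the non-responder library's. Leaving it out thus takes the tail mostly from 1 library, and lower ratios follow from that choice. Without the interferon-high cells of both libraries the module's log2 ratio was 0.58, with 14 members at least 1.5-fold higher and none lower. The module's own sum chose the cells removed, so this describes the cells below the cut and is not a separate check.

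From cell to cell the members were loosely coupled. Over 595 pairs of members the median Pearson correlation of log2(thinned count + 1) was 0.08 in 3983 responder and 0.13 in 2164 non-responder cells, and 50 and 167 pairs were above 0.2. These values are descriptions over cells of 1 library each, and thinned counts of 0 or 1 keep them low. The tightest pair was Isg15 with Ifit3, at 0.49 and 0.61. Ifit3 with its neighbour Ifit3b reached 0.38 and 0.61, Ifit1 with Ifit3 0.42 and 0.54, and Ifit1 with Rsad2 0.35 and 0.51. Against the sum of the other members Isg15 (0.62 and 0.67) and Ifit3 (0.52 and 0.61) stood highest, and Irf9 (0.07 and 0.07) lowest.

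Among 4063 other genes seen in at least 5% of thinned cells of each library, the 10 most like the module were Ms4a4c, Ifitm3, Phf11b, Bst2, Ly6a, Cxcl10, Ifi27l2a, Mndal, Mnda and Fcgr1. Ms4a4c, a membrane protein of the MS4A family, led with correlations of 0.46 and 0.51, and Ifitm3, which blocks viral entry, followed with 0.38 and 0.49. Cxcl10, the chemokine that draws CXCR3-bearing T cells, had 0.29 and 0.42. The median over all candidates was -0.01 in both libraries. Least like it were ribosomal protein genes, with Rpl3 at -0.21 and -0.18.

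The ligand was found in few cells, and mostly in the non-responder library. Of 18 type I interferon genes only Ifnb1, interferon beta, had more than 3 UMIs. In the responder library 14 cells held 34 Ifnb1 UMIs, all macrophage-like. In the non-responder library 32 cells held 196 UMIs, of which 28 cells with 189 UMIs were macrophage-like. As a level in macrophage-like cells this was 0.8002 against 6.81 CPM, a log2 ratio of -3.09 (-3.66 to -2.56), with 1 non-responder cell holding 59 UMIs and 3 cells 104. Ifna2 (2 UMIs), Ifnk (1) and Ifnz (1) appeared in the non-responder library only, at or under 3 UMIs.

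Ifnb1 went with the module in the non-responder library. Its 28 macrophage-like cells had a median module sum of 19, from 0 to 118, beside 6 in the other cells, and 11 of them (39.3%, 21.5 to 59.4) were interferon-high. Of the 28 cells 18 lay in cluster 1. Ifnb1 was at 53.1 CPM in interferon-high and 2.67 CPM in other non-responder cells, a log2 difference of 4.31. In the responder library 2 of 14 cells with Ifnb1 were interferon-high, with a median sum of 14.5 beside 10, and the level was 0.833 CPM in interferon-high and 0.801 CPM in other cells. Few cells carry these values: 15 of the 28 non-responder cells and 3 of the 14 responder cells held 3 or more UMIs.

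Of the receptors, Ifnar1 was at 58.3 and 60.9 CPM and Ifnar2 at 101 and 83.1 CPM in macrophage-like cells, and none of the 5 measured receptor genes was 1.5-fold apart. Signalling genes were mostly higher in the responder library, 12 of 13, with a median log2 ratio of 0.49. Beside this, 39.9% of all genes were higher, with a median of -0.09. Irf1, a transcription factor that also serves the interferon gamma pathway, was at 169 and 51.1 CPM, a log2 ratio of 1.73. Socs1, a feedback inhibitor, was at 4.24 and 0.937 CPM (2.18), and Jak1 and Ptpn2 had the lowest ratios, at -0.14 and 0.00.

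Genes that sense nucleic acid upstream of interferon were 12 of 16 higher in the responder library, with a median of 0.24. Tlr9 (1.15 and 0.685 CPM) and Tmem173, which encodes STING (113 and 70.4 CPM), had the highest ratios, that of Tlr9 from 49 and 19 UMIs with an interval of -0.04 to 1.60, and Tlr7 (19.8 and 25.5 CPM) and Ticam1 (10.4 and 12.5 CPM) the lowest. Of 44 other interferon-induced genes that were not members 41 were higher, with a median of 0.41, led by Gm4951 (1.66) and Ifi47 (1.07) and ending with Slfn2 (-0.08) and Phf11c (-0.30). All 19 genes of the interferon gamma list were higher, with a median of 1.61, from 0.23 for Icam1 and 0.64 for Cd274 to 3.23 for Fam26f and 3.46 for Cxcl9. Of all genes measured in macrophage-like cells 39.9% were higher in the responder library, with a median of -0.09. These lists were chosen with earlier results of these data known.

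Other cell classes carried less of the module. T cell-like cells stood at 2471 CPM (2308 to 2642) in the responder library and 2300.0 CPM (2111 to 2502) in the non-responder library, a log2 ratio of 0.10 with an interval of -0.05 to 0.26. The 2 libraries held different T cells: 62 of the 80 responder cells lay in cluster L6 (Ifng, Cxcr6, Cd8a), where the non-responder library had 1 cell, and 19 of the 41 non-responder cells lay in cluster L5 (Foxp3, Penk, Cd4), where the responder library had 2. In cluster L4 (Xcl1, Cd8b1, Cd8a), which both shared, 16 responder cells were at 923 CPM and 21 non-responder cells at 976 CPM. The 3 non-responder T cell-like cells with sums past the cut were all in L5, which stood at 4454 CPM. A few cells weighed heavily: 3 cells held 19.1% of the module's UMIs among 80 responder cells and 48.3% among 41 non-responder cells. Dendritic-like cells were at 3310.2 and 2779 CPM, in 11 and 78 cells, and NK cell-like cells at 1255 and 730.1 CPM, in 4 and 20 cells. Fibroblast-like cells were at 1884 and 1827 CPM, where 3 non-responder cells held 75.4% of the UMIs. Barcodes with both T cell and macrophage markers were at 3836 and 1683 CPM. Summed macrophage markers in T cell-like cells reached 7.36% and 3.11% of their level in macrophage-like cells.

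The members were not evenly lower in T cell-like cells. Isg20 was far above its macrophage-like level, at 289.6 against 26.4 CPM in the responder library and 296 against 33.0 CPM in the non-responder library, log2 differences of 3.46 and 3.16. Ifi203 was also above it in both, at 127.4 against 86.0 and 211 against 71.0 CPM. Ifit1 was above it in the non-responder library alone, at 237 against 90.7 CPM, beside 95.6 against 76.9 CPM in the responder library. Irf9 (104 against 58.3 CPM) and Trim30a (127.4 against 85.2 CPM) were above it in the responder library alone. Irf7 was below it, at 229 and 118 CPM, or log2 -1.63 and -2.03, and so were Ifi204 (37.7 and 29.6 CPM), Rsad2 (26.1 and 33.8 CPM) and Oas1g, which had 0 UMIs in both libraries.

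Of the 12 members with at least 20 UMIs in T cell-like cells of a library, 7 had a ratio between libraries with an interval clear of 0, and these ratios set mostly L6 against L4 and L5. Zbp1 was at 293 CPM (101 UMIs) against 123 CPM (29 UMIs), a log2 ratio of 1.25 (0.65 to 1.90), and Trim30a at 127.4 against 55.0 CPM (1.21, 0.29 to 2.23). Usp18 (1.12, 0.15 to 2.19), Xaf1 (1.04, 0.17 to 1.99) and Irf7 (0.95, 0.31 to 1.63) were higher in the responder library as well. Ifit1 (-1.31, -1.98 to -0.66) and Ifi203 (-0.73, -1.35 to -0.12) were higher in the non-responder library. The ratios were not split by T cell cluster. Isg15, at 289.6 and 381 CPM, Isg20, Ifit3 (113 and 110 CPM), Rtp4 (133 and 152 CPM) and Irf9 (104 and 76.1 CPM) had intervals that included 0.

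In dendritic-like cells Isg20, Ifi203 and Ifi205 were above their macrophage-like levels in both libraries. Ifi205 was at 124 CPM (94 UMIs) in non-responder dendritic-like cells against 26.0 CPM in macrophage-like cells, a log2 difference of 2.25 (1.92 to 2.56). Isg20 was at 229.9 and 78.8 CPM and Ifi203 at 125 CPM in the non-responder library. Isg15 (425 and 317 CPM) and Irf7 (494 and 405 CPM) were below the macrophage-like level, as were Ifi204 (108 CPM) and Rsad2 (67.0 CPM) in the non-responder library. Non-responder NK cell-like cells had at least 20 UMIs for Isg20 (147 CPM) and Ifi203 (79.4 CPM) alone. Isg20 therefore stood above the macrophage-like level in T cell-like and dendritic-like cells of both libraries and in NK cell-like cells of the non-responder library, in contrast to most members.

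**Figure D5:**
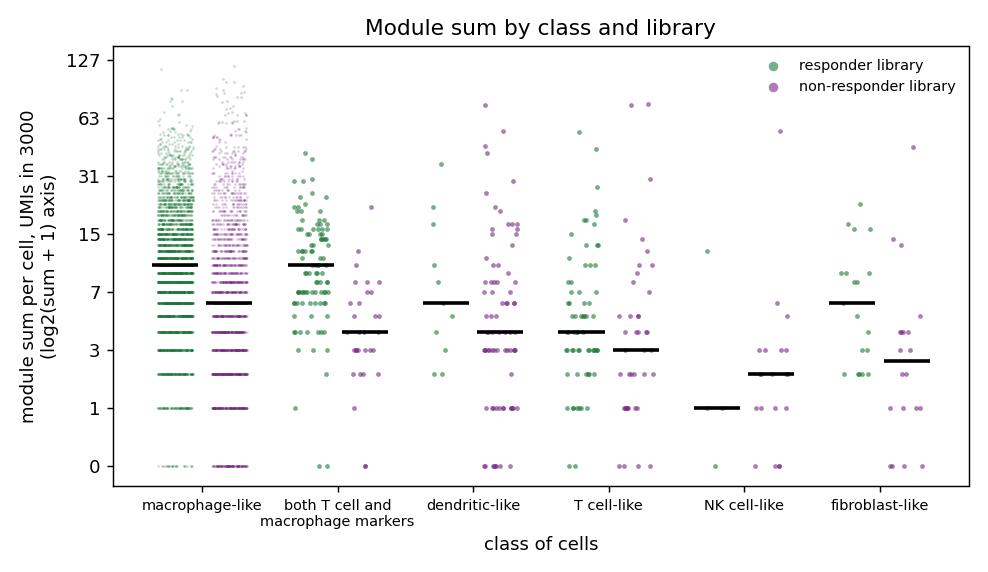
Module sum per cell, in member UMIs of 3000 on a log2(sum + 1) axis, by class of cells for the responder (green) and non-responder (purple) library, with each cell a point, jittered sideways, and the class median a black bar. Medians are 10 and 6 in macrophage-like cells and 4 and 3 in T cell-like cells, and single cells with sums above 40 appear among T cell-like, dendritic-like, NK cell-like and fibroblast-like cells.

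Some members are hard to tell apart by the 3′ ends that these libraries read. Of the 60-base windows in the last 600 bases of each transcript (GENCODE M21, GRCm38), Ifi205 shared 78.9% with Ifi211, Oas1a shared 60.3% with Oas1g, and Oas1g shared 38.6% with Oas1a. Slfn8, Phf11d and Ifit3 shared 17.5%, 16.04% and 14.6%, Ifit3 with Ifit3b. The other members shared 10% or less, and 25 of 35 shared none. Apart from shared sequence, Irf9 overlaps Rnf31 and Ifi203 overlaps Mndal on the same strand, and the effect on their counts was not tested. How the authors' counting treated such reads is not given in the sources used here, so the values of Ifi205, Oas1a and Oas1g are uncertain.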

How the data were processed

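The authors deposited filtered matrices of UMI counts per gene and barcode, 1 per library, which held whole numbers. Per the submitters' processing notes, Cell Ranger 1.1.0 and the builds mm10 and GRCm38 were used. The annotation and the rule that called cells are not given in the sources used here.

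A barcode was dropped when it held under 500 genes (4 barcodes) or when over 10% of its UMIs were mitochondrial (61), which took 64 of 7005. Cells of both libraries were clustered in scanpy 1.11.5 without batch correction (2000 variable genes without the members, 30 components, 15 neighbours, Leiden resolution 1.0), and T and NK cells again. A marker counted at 50 CPM in 10% of cells. A cluster was left unnamed when its 10 leading genes against cells outside its class held more markers of another type than of its own, a rule set after the data had been seen. No doublet caller was run: barcodes with 2 marker sets were kept apart, and an alternative dropped the 5% of cells with the most UMIs. UMIs were summed per class and library. Poisson intervals for CPM, conditional binomial intervals for ratios and Clopper-Pearson intervals for shares, all exact at 95%, cover counting error only. The functions were tested on simulated data. Genes needed 50 UMIs in both libraries together. Fewer molecules of a gene per cell and fewer cells carrying it give the same class level.

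The members and all lists were chosen with earlier results of these data known. All members are described; values with intervals are given for the 4 highest and 4 lowest ratios and the 4 most abundant members, and in other classes for members with 20 UMIs. Of the lists, the 2 highest and 2 lowest genes are named. Of the listed genes 4 had no entry, and of the markers 4. Alternatives changed the scaling (TMM, edgeR 4.0.16), pseudocount, filters, clustering, cut, depth and bandwidth. A result on 1 gene of the signalling list is not reported here.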

Additional observations from a re-analysis of the deposited data

How the results depend on the processing

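The module's log2 ratio in macrophage-like cells, 0.35, was 0.47 under TMM scaling, which added 0.12 to every ratio, 0.58 without interferon-high cells, 0.33 with the members in the clustering and 0.32 as a mean over cells. It was 0.41 without cluster 8, whose leading genes against all other clusters hold a B cell marker, and 0.11 without cluster 16. Leaving out cluster 16 takes module-rich cells mostly from the responder library, so a lower ratio follows from that choice. The module's ratio was reversed in shared clusters weighted equally, at -0.95, and at -0.41 with the interferon genes out of the clustering. The members' median, 0.28, was 0.49 without interferon-high cells and reversed in shared clusters, to -1.003 and -0.46. There Zbp1 (-0.10), Parp14 (-0.25), Stat2 (-0.32), Ifi44 (-0.44), Oas3 (-0.63) and Herc6 (-1.33) were reversed as well. Members at least 1.5-fold higher and lower, 6 and 1, were 14 and 0 without interferon-high cells, 3 and 5 without cluster 16, and 9 and 1 under TMM scaling.

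Interferon-high shares, 9.47% and 9.01%, were 22.0% and 16.3% with the cut at 2 times the median and 4.22% and 5.36% at 4 times. The responder share was 11.9% with odd-numbered and 8.01% with even-numbered members, 5.12% without cluster 16 and 11.1% without cluster 8. Another draw of the thinning gave 9.21% and 9.29%, so which share is higher at this cut was not stable. The density's maxima numbered 3 and 4, and 11 and 12 at a bandwidth of 0.1 and 1 and 2 at 0.4. With 5000 UMIs each library had 1 maximum at 0.4. The T cell-like log2 ratio, 0.10, was 0.91 with barcodes of both marker sets and 0.31 with cluster L3. The cause of these changes was not tested. The module's ratio was 0.35 with cluster 4, 0.34 with 1000 genes required and 0.33 without the cells with the most UMIs, and the members' median was 0.27 with a pseudocount of 1 CPM. The alternatives on clusters 4, 8, 16 and L3, on the second draw and on clustering without interferon genes were chosen after seeing the data.

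No paired analysis was possible because each group has 1 library. Depth limits members under about 20 UMIs in the smaller classes and all type I interferon genes but Ifnb1.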

Other observations

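Interferon-high cells also differed from other macrophage-like cells in genes outside the module, in both libraries. The members' sum chose the cells and the lists hold related genes, so these counts describe the tail and test nothing. All 44 other interferon-induced genes were higher in interferon-high cells, 41 of them at least 1.5-fold in the responder library, beside 5.19% of all genes, and 43 in the non-responder library, beside 7.55%. Cxcl10 was at 1356 against 385.5 CPM in the responder library and at 1939.8 against 199.7 CPM in the non-responder library. Tnfsf10, the death ligand TRAIL, was at 15.8 against 4.31 and at 26.3 against 1.53 CPM. Tlr3, the endosomal sensor of double-stranded RNA, was at 16.9 against 7.85 and at 27.2 against 5.54 CPM.

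The interferon gamma list was higher in interferon-high cells by a median log2 of 0.61 in the responder library and 1.64 in the non-responder library. MHC class II genes differed little, with medians of -0.01 and 0.27, although all 6 were higher in the responder library as a whole by a median of 2.25. Ciita, which drives MHC class II, was at 17.2 CPM in interferon-high against 24.0 CPM in other responder cells, and at 3.07 against 4.36 CPM in the non-responder library, there from 7 UMIs with a log2 interval of -1.85 to 0.58. Of the monocyte genes with enough UMIs 4 of 6 were higher in them in the responder and 4 of 5 in the non-responder library. Ly6c2 was at 255 against 73.4 CPM in the responder library and 104 against 22.0 CPM in the non-responder library, while F13a1 was at 11.1 against 12.6 CPM and at 26.3 against 45.1 CPM. All 7 proliferation genes were lower in them in both libraries, by medians of -0.52 and -0.38. Top2a was at 37.5 against 64.8 and at 42.6 against 67.9 CPM. Of all genes 6320 of 10125 were lower in interferon-high cells in the responder library, with a median of -0.10. In the non-responder library 6328 of 9721 were, with a median of -0.13.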
